A study of Mus musculus with 6 samples.

Results

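Oligodendrocytes with transcripts of Anln and Hapln2 were picked out of single nuclei of the young mouse brain. A nucleus belonged to them when it held at least 2 unique molecular identifiers (UMIs, each a count of a single RNA molecule) of Mog and Mag together and at least 3 of Anln and Hapln2 together. It could hold at most 1 UMI of Gpr17, Neu4 and Bmp4, genes of committed precursors, at most 1 of Pdgfra and Cspg4, genes of dividing precursors, and none of Csf1r, a receptor of microglia. Of 60724 nuclei with at least 300 genes and at most 1% of UMIs from mitochondrial genes, 2482 (4.09%) met this rule, and they are called mature oligodendrocytes below. Nuclei that met every part of the rule but the one on Anln and Hapln2 numbered 13121 and are called Mog and Mag nuclei. The nuclei were chosen on their own counts, so that their levels against those of other nuclei are a description with no test, whereas the injected agent had no part in the rule.

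The nuclei came from 6 brains of C57BL/6 S-56 mice, without olfactory bulbs and cerebellum, each made into 1 library. At P7, 3 mice received 5 µl of lysophosphatidic acid (LPA, a signaling lipid of blood plasma) and 3 received the same volume of its vehicle, bovine serum albumin in buffered saline, into the right lateral ventricle. The injection models hydrocephalus after hemorrhage, and brains were collected at P15. The anesthesia, the surgery and the flunixin given against pain were common to all mice, and the LPA concentration behind these 6 brains was not given in the sources used here. Nuclei without the neuronal protein NeuN were sorted, and 10000 were targeted per library. Judged by Xist and Y-linked genes, LPA 1, vehicle 1 and vehicle 3 were male brains and the other libraries female ones. The LPA libraries held 345, 319 and 321 mature oligodendrocytes with 2679691, 2436872 and 2514992 UMIs, and the vehicle libraries 367, 561 and 569 with 2574929, 3699694 and 3302613. The median UMI count per nucleus was 6694, 6436 and 6784 in LPA libraries and 5713, 5472 and 4763 in vehicle libraries, with no overlap. Any 2 libraries shared between 268 and 303 cell barcodes, or 2.13% to 3.47% of the smaller library.

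Oligodendrocytes wrap axons in myelin, a stack of membrane that is rich in cholesterol and galactolipids and is held together by proteins such as Mbp. They arise from dividing precursors, pass through a newly formed stage and a stage of active wrapping, and then settle into a mature state that maintains the sheath. Anln encodes anillin, which helps septin filaments to scaffold compact myelin, and Hapln2 encodes a link protein that binds hyaluronan around nodes of Ranvier. Mog and Mag encode proteins of the outer and the inner face of the sheath.

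The rule itself fixed how Anln and Hapln2 were detected. Of the mature oligodendrocytes, 84.3% held UMIs of both Anln and Hapln2, 12.2% of Anln alone and 3.47% of Hapln2 alone, whereas 0.0760% of the 28951 nuclei kept without any Mog or Mag UMI held both. Markers that the rule did not use were set beside the name. The nuclei without Mog and Mag were chosen to lack oligodendrocyte transcripts. Shares against them thus bear on the cell type and not on the mature state. Prr5l, a regulator of the TORC2 kinase complex, had a UMI in 99.9% of them in the mean of 6 libraries, against 9.96% of the nuclei without Mog and Mag. Mbp was found in every mature oligodendrocyte, but also in 66.3% of the nuclei without Mog and Mag, so that a UMI of it says little by itself. Lpar6, a receptor for LPA, had a UMI in 31.0% against 3.80%, the apolipoprotein gene Apod in 77.5% against 10.9%, and the transporter gene Slc5a11 in 12.6% against 0.969%. The serine protease gene Klk6, known from the most mature oligodendrocytes, had a UMI in 3.36% against 0.0426%. Ptgds, a prostaglandin synthase gene on the list of late maturation genes, went the other way, at 16.9% against 20.7%. Il33 stood at 4.36% against 4.43%. Enpp6, a marker of newly formed oligodendrocytes, was at 79.0% against 7.80%, and Opalin, of the myelinating stage, at 40.8% against 3.34%. Nearer in kind were the 8578 Mog and Mag nuclei that held no Anln and no Hapln2 UMI. In them Prr5l was at 37.4%, Lpar6 at 7.40%, Apod at 19.65%, Enpp6 at 29.5% and Opalin at 32.7%. Ptgds, at 19.5%, was again above its share in mature oligodendrocytes. The median UMI count, which differed beside these shares, was 4763 to 6784 per library in the mature oligodendrocytes and 3298 to 3965 in the nuclei without Mog and Mag, and the part of depth in the shares was not tested.

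The promoters of both defining genes are shown because the group rests on their transcripts. They are RefSeq sequences on GRCm38.p6, from 250 bases before the start of transcription to 50 bases after it, both on the minus strand, at chr9:22389157-22389456 for Anln and chr3:88027462-88027761 for Hapln2. Capitals mark the E-box CAGCTG, a motif of basic helix-loop-helix factors such as Olig2, which was searched on both strands together with the Sox motif ACAAAG. 
Anln: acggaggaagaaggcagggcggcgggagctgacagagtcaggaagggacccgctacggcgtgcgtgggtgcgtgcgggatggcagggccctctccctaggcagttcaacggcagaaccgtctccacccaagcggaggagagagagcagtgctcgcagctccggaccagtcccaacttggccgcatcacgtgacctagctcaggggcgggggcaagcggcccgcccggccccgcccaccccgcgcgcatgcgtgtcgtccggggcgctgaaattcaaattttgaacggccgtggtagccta
Hapln2: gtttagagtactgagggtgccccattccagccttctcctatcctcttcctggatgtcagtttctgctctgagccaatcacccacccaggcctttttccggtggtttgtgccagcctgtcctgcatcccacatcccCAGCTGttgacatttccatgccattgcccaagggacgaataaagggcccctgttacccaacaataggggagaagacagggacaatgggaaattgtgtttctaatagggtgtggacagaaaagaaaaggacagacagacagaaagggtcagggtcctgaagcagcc
The E-box of Hapln2 begins 115 bases before the start, and 16.4% of all 32544 promoters of this length hold this motif. The Sox motif, which 18.7% of them hold, was in neither of these windows, and the window of Anln held neither motif.

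Against the 8578 Mog and Mag nuclei that held no Anln and no Hapln2 UMI, mature oligodendrocytes had more transcripts of the compact sheath and fewer of genes that mark the onset of wrapping. Levels are given as CPM, the UMIs of a gene per 1000000 UMIs of these nuclei, as the mean of 6 libraries with its SD, and are compared within a gene. Prr5l stood at 2324 ± 106 against 313 ± 54.5, the iron carrier gene Trf at 1055 ± 59.8 against 201 ± 22.4, and Apod at 276 ± 20.6 against 54.6 ± 8.11. Mbp stood at 9469 ± 128 against 6489 ± 224 and Mobp at 3833 ± 284 against 2377 ± 136. Mog, which the rule used, was 1426 ± 53.4 against 724 ± 45.9, but Mag, which it also used, was lower, at 982 ± 57.3 against 1270 ± 88.3. Of genes of at least 50 CPM, those that led the ratio after Anln and Hapln2 included Rab37, a small GTPase of secretion (55.4 ± 7.13 against 1.26 ± 0.655), Rftn1, a protein of lipid rafts (328 ± 11.96 against 36.7 ± 4.53), Kcnk13, a potassium channel (242 ± 18.1 against 33.5 ± 5.57), and the phospholipid acyltransferase gene Mboat1 (172 ± 12.3 against 21.9 ± 2.01). Septin transcripts were higher too, with Sept7 at 1684 ± 50.6 against 753 ± 24.3 and Sept4, a subunit of the myelin septin filament, at 400.1 ± 20.3 against 304 ± 16.2.

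In the other direction stood genes of newly formed and wrapping oligodendrocytes. The calcium-sensing receptor gene Casr was at 6.67 ± 1.63 in mature oligodendrocytes against 85.3 ± 15.4, the hyaluronidase gene Cemip2 at 82.6 ± 16.5 against 744 ± 120, and Tcf7l2, a transcription factor of differentiating oligodendrocytes, at 131 ± 27.7 against 1046 ± 136. Itpr2, a calcium channel of the endoplasmic reticulum, was at 102 ± 15.9 against 697 ± 98.4, and Prom1 at 23.4 ± 5.94 against 199 ± 18.1. Enpp6, a choline phosphodiesterase commonly used to mark newly formed oligodendrocytes, went the other way, at 291 ± 7.60 against 168 ± 17.9. All 6 libraries showed each of these directions.

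Along the count of Anln and Hapln2 UMIs, several early genes fell and several late genes climbed between 0 and 2 UMIs, before the threshold, though not every member of either list did. The 20 newly formed and early myelinating genes summed to 14050 CPM in the nuclei with 0 UMIs and 4323 in mature oligodendrocytes, and the 20 late maturation genes to 2475 and 4785, with no overlap of libraries in either list. Frmd4a led the first sum, at 4135 and 915 CPM, and stood at 3037 over all nuclei kept. Enpp2 led the second, at 1018 and 1630. Markers of other cell types were also higher at 0 UMIs, with 12 neuron markers at 5960 against 3141 CPM and 12 astrocyte markers at 3436 against 2197. The part of other cell types in the fall of the early genes was not tested. Just inside the threshold were 445 nuclei with 3 UMIs and just outside it 627 with 2, and their median UMI counts per nucleus, 5468 and 5385, were close. Casr fell off from 85.3 CPM at 0 UMIs of the pair to 46.7 at 1 and 11.9 at 2, and was 16.3 at 3. Cemip2 ran from 744 to 499.8, 134 and 131, and Tcf7l2 from 1046 to 630.2, 164 and 178, so that these genes differed little between the nuclei on either side of the threshold. Enpp6 (168, 159 and 171 CPM at 0, 1 and 2 UMIs) and the early myelinating gene Bcas1 (715, 783 and 781), both on the list of early genes, did not fall. Prr5l, which is not on the list of late genes, stood at 313 CPM at 0 UMIs, 957 at 1 and 1592 at 2. Of the late genes, Trf was at 201, 528 and 760, Apod at 54.6, 113 and 188, and Slc5a11 at 2.13, 4.34 and 7.13. The late gene Ptgds went down, at 135, 106 and 69.9. Among the mature oligodendrocytes themselves, Opalin, a membrane protein of the myelinating stage, declined from 156 CPM at 3 UMIs to 109 at 4, 95.5 at 5 to 9 and 50.6 at 10 or more. Klk6 climbed from 1.16 to 2.63, 5.001 and 10.97 over the same 4 bins, Slc5a11 from 14.97 to 16.7, 20.6 and 30.9, Prr5l from 1827 to 1986, 2410 and 2887, and the calcium-binding protein gene S100b from 69.6 to 74.8, 95.8 and 109. The early genes Enpp6, from 225 to 251, 301 and 365, and Bcas1, from 801 to 839, 848 and 978.5, were also higher with the count, while the late gene Ptgds was at 101, 56.1, 77.1 and 37.8. Mog, at 1439, 1461, 1418 and 1422, did not follow the count. The nuclei with 10 or more UMIs had a median of 6534 UMIs per nucleus.

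**Figure D1:**
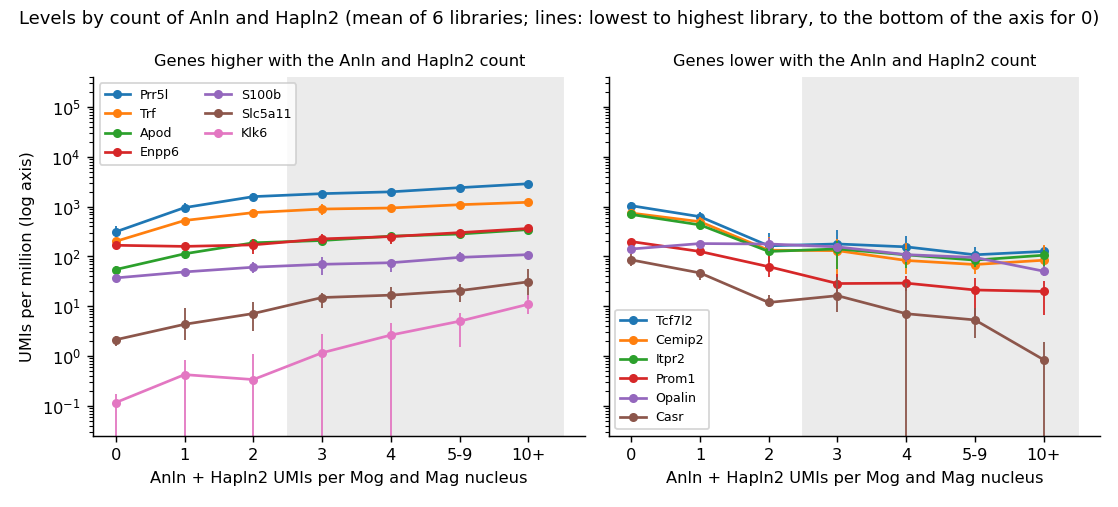
Levels in CPM on a log axis (y) of 13 genes in Mog and Mag nuclei binned by their Anln and Hapln2 UMIs (x), with points for the mean of 6 libraries and lines from the lowest to the highest library. The shaded bins are the mature oligodendrocytes: Casr, Cemip2, Tcf7l2 and Itpr2 drop between 0 and 2 UMIs, where Prr5l, Trf, Apod and Slc5a11 rise, and Prr5l, S100b, Slc5a11 and Klk6 keep climbing to the bin of 10 or more and Opalin declines within the shaded bins.

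The first question put to the design was whether these cells took a smaller share of the nuclei in LPA brains. A share of sorted nuclei can fall while the number of cells does not, and cell numbers were not measured. Mature oligodendrocytes made up 4.05%, 3.11% and 3.53% of the nuclei kept in LPA libraries and 4.53%, 4.52% and 4.62% in vehicle libraries, so that every LPA library lay below every vehicle library. The means were 3.56% ± 0.471 and 4.56% ± 0.0543 (SD, n = 3 each), a difference of −0.996 percentage points (two-sided exact permutation test, p = 0.1, the smallest p that 3 against 3 libraries can give). All Mog and Mag nuclei moved with them, at 17.4%, 17.4% and 18.6% of the nuclei kept against 24.3%, 25.7% and 24.3%. Within the Mog and Mag nuclei, the mature ones took 23.2%, 17.8% and 19.0% in LPA libraries and 18.6%, 17.6% and 19.0% in vehicle libraries, and the groups overlapped. This difference of 1.63 percentage points (exact permutation test, p = 0.4) rested on LPA 1 and was 0.0336 without it. With at least 5 UMIs of Anln and Hapln2 required, the share of the nuclei kept was 2.47% ± 0.289 and 2.86% ± 0.246 and the groups overlapped (exact permutation test, p = 0.2). With at least 5 Mog and Mag UMIs required, the mature share of Mog and Mag nuclei was 28.8% ± 3.36 and 25.4% ± 0.588, with no overlap (exact permutation test, p = 0.1). With nuclei thinned to 2000 UMIs before the rule was applied, and the shallower ones left out (2715 of 27893 nuclei kept in LPA and 3589 of 32831 in vehicle libraries), that share was 7.85% ± 0.659 and 7.83% ± 0.546, a difference of 0.0212 percentage points (exact permutation test, p = 1), and the mature share of the nuclei kept was 1.37% ± 0.0966 and 1.92% ± 0.0728, a difference of −0.546 with no overlap (exact permutation test, p = 0.1). Nuclei with 10 or more UMIs took 4.43% of the Mog and Mag nuclei of the pooled LPA libraries and 2.18% of those of the vehicle libraries, with the deeper LPA nuclei (median 7256 against 5938 UMIs) beside it. The part of depth in that bin was not tested.

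**Figure D2:**
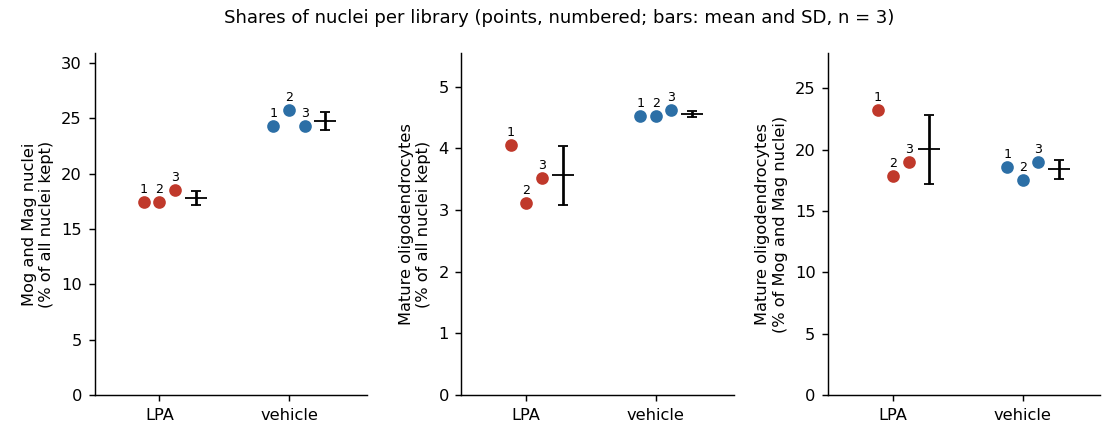
Shares of nuclei in percent (y) for each of the 3 LPA and 3 vehicle libraries (points with their replicate number), with the mean and SD beside them. LPA libraries lie below vehicle libraries for the Mog and Mag nuclei and for the mature oligodendrocytes among all nuclei kept, and overlap them for the mature share of the Mog and Mag nuclei, where LPA 1 stands apart at 23.2%.

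The second question was which genes of mature oligodendrocytes differed between LPA and vehicle libraries. The make-up of the group differed too. Nuclei with 10 or more UMIs of Anln and Hapln2 were 220 of 985 in LPA and 178 of 1497 in vehicle libraries. Slc5a11 and S100b climbed and Opalin declined with that count. The part of this make-up and of depth in the changes below was not tested. UMIs were summed per library and tested over all genes with edgeR's quasi-likelihood test and Benjamini-Hochberg adjustment, and to pass, a gene needed an adjusted p below 0.05 and a change of 0.25 or more on the log2 scale, up or down. Of 12415 genes tested, 39 (0.314%) passed, 10 higher (0.0805%) and 29 lower (0.234%), and 8.82% of all genes had an unadjusted p under 0.05. Levels of the genes that passed were also set beside their levels over all nuclei kept. Of the 29 lower genes 6 were mitochondrial, and of the other 23, 21 were less abundant in mature oligodendrocytes than over all nuclei kept, 19 of them by more than 2-fold. Polr3e and Lpar6 were the 2 exceptions. Of the 10 higher genes, 4 were at or above the level of all nuclei. These counts are a description, since the same count over all genes tested is not given here. Scrublet, which scores nuclei that look like a mixture of 2, called 26.1%, 21.6% and 24.6% of the mature oligodendrocytes of LPA libraries and 21.3%, 25.1% and 26.5% of those of vehicle libraries, so values without those nuclei are given as well. Over all nuclei kept, it called 16.1% to 19.4% per library, at a set expected rate of 0.08.

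**Figure D3:**
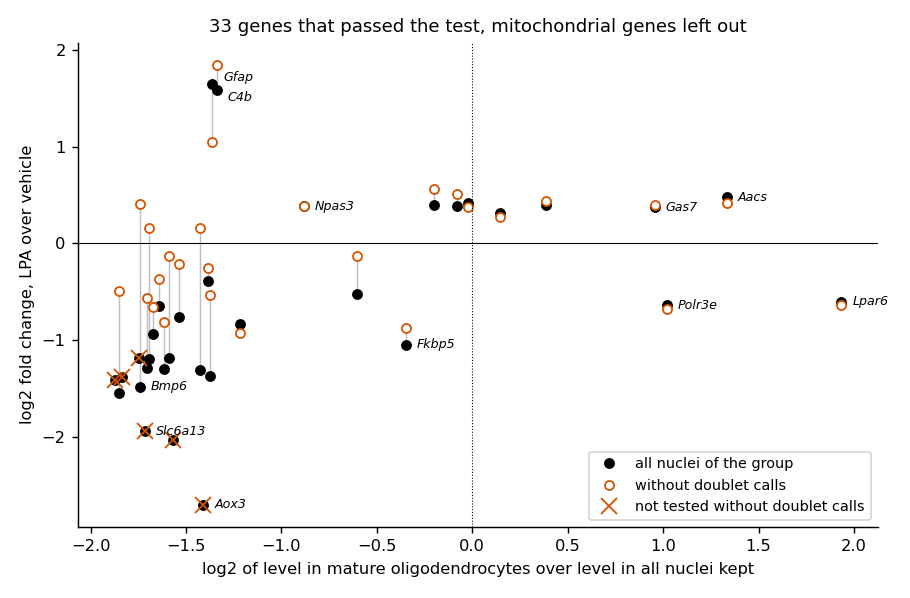
For the 33 genes that passed the test, mitochondrial genes left out, the log2 fold change of LPA over vehicle (y) against the log2 ratio of the gene's level in mature oligodendrocytes to its level in all nuclei kept (x), with all nuclei (black) and without doublet calls (open circles). Most lower genes lie left of 0 and move toward or past 0 once doublet calls are left out, whereas Fkbp5, Polr3e, Lpar6, Gas7, Aacs, Npas3, Btaf1, Gnao1 and Slc8a3 move little.

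Of the higher genes, 5 passed with and without the doublet calls, and without them Gas7 was at 0.39, Aacs at 0.42, Npas3 at 0.39, Fam13c at 0.51 and Samd4 at 0.56. Gas7, a gene of membrane and actin remodeling (chromosome 11, 67455437 to 67688990 on GRCm38), stood at 830.3, 916 and 854 TMM-scaled CPM (CPM after edgeR's scaling of library sizes) in LPA libraries and 671, 675 and 663 in vehicle libraries, a log2 fold change of 0.37 ± 0.06 (SE, adjusted p = 0.0151). Aacs, which makes acetoacetyl-CoA for lipid synthesis (chromosome 5, 125475814 to 125517410), stood at 185, 166 and 172 against 134, 123 and 118, a change of 0.48 ± 0.08 (adjusted p = 0.0176). Both lay above the level of all nuclei, by 1.94-fold and 2.52-fold, and in neither did the groups overlap. The call of Gas7 was lost without LPA 2 or vehicle 3 (adjusted p = 0.101 and 0.111), and that of Aacs without LPA 1, vehicle 2 or vehicle 3 (adjusted p = 0.0663, 0.0568 and 0.108). The transcription factor gene Npas3 rose by 0.38 (adjusted p = 0.0146), Fam13c by 0.39 (adjusted p = 0.0234) and the RNA-binding protein gene Samd4 by 0.39 (adjusted p = 0.0399), and these 3 were below the level of all nuclei. Fam13c lost its call in each of the 6 fits that left out 1 library (adjusted p = 0.05 to 0.108) and with sex as a term (adjusted p = 0.0662). Samd4 kept its call without vehicle 1 and lost it without any other library (adjusted p = 0.0794 to 0.197), with sex as a term (adjusted p = 0.0662) and with the replicate block (adjusted p = 0.0503). Npas3 lost it without LPA 1, LPA 2 or vehicle 3 (adjusted p = 0.0526, 0.0867 and 0.109). None of the 10 higher genes passed without nuclei that held a vascular or meningeal UMI, where the adjusted p of Gas7, Aacs, Npas3, Fam13c and Samd4 was 0.113, 0.158, 0.243, 0.0601 and 0.382 while their changes stayed near those with all nuclei, at 0.37, 0.40, 0.33, 0.48 and 0.33. These 5 also lost their calls thinned to 2000 UMIs and with a threshold of 5 UMIs (adjusted p = 0.0553 to 0.787), and Aacs and Samd4 with an upper limit on UMIs (adjusted p = 0.0794 and 0.0945). Gfap, the intermediate filament of astrocytes, stood at 23.6, 25.9 and 18.6 against 9.17, 6.29 and 6.68 (log2 fold change 1.64 ± 0.21, adjusted p = 0.0047), and its share of nuclei with a UMI was 10.7% in LPA and 3.58% in vehicle libraries, beside 14.4% and 6.504% of the nuclei without Mog and Mag, which are a mixture of cell types. Without doublet calls its change was 1.05 (adjusted p = 0.213). The complement gene C4b had a UMI in 7.14% and 2.14% of mature oligodendrocytes beside 10.6% and 4.28% of the nuclei without Mog and Mag, and its change of 1.58 (adjusted p = 0.0404) was 1.84 without doublet calls (adjusted p = 0.129). The part of free RNA of other cells in Gfap and C4b was not tested. The remaining higher genes were Btaf1, Gnao1 and Slc8a3, at 0.42, 0.31 and 0.40. Without the doublet calls they did not pass, but their changes were about as large, at 0.38, 0.27 and 0.43 (adjusted p = 0.0723, 0.0937 and 0.0634). With 1 library left out, Gnao1 lost its call in all 6 fits (adjusted p = 0.056 to 0.23), and Btaf1 and Slc8a3 lost theirs in all but the one without LPA 3 (adjusted p = 0.0657 to 0.187 and 0.108 to 0.231). C4b lost it without LPA 2, LPA 3, vehicle 2 or vehicle 3 (adjusted p = 0.114 to 0.222). All 4 lost it with the replicate block (adjusted p = 0.0544 to 0.0817), and Gnao1, Slc8a3 and C4b with sex as a term (adjusted p = 0.0617 to 0.0735).

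Of the 23 lower genes outside the mitochondria, Fkbp5, Polr3e and Lpar6 passed with and without the doublet calls. Polr3e, a subunit of RNA polymerase III (chromosome 7, 120917744 to 120947432), stood at 62.0, 61.4 and 65.1 TMM-scaled CPM in LPA libraries and 88.2, 97.7 and 107 in vehicle libraries. The fitted change was −0.64 ± 0.10 (adjusted p = 0.0133), and −0.68 without doublet calls (adjusted p = 0.00546). Leaving out LPA 2 or vehicle 3 took the adjusted p to 0.051 and 0.108, and leaving out nuclei with a vascular or meningeal UMI took it to 0.196, at a change of −0.52. Of the other 20 lower genes, 6 fell under the count filter once the doublet calls were left out and so were not tested, and 14 were tested and did not pass. Of these 14, the change of 10 was nearer to 0, that of 3 turned to above 0 and that of Adra1a, an adrenergic receptor gene, went from −0.83 to −0.93 (adjusted p = 0.221). Bmp6, a ligand of the bone morphogenetic protein family (chromosome 13, 38345107 to 38500302), was at 24.0, 18.4 and 24.2 against 65.7, 52.8 and 68.6 with all nuclei, a change of −1.48 ± 0.15 (adjusted p = 0.000674), and its change without doublet calls was 0.40 (adjusted p = 0.828). Slc7a11, the cystine transporter, went from −1.29 (adjusted p = 0.00134) to −0.57 (adjusted p = 0.568). Cped1, Sidt1, the transporter genes Slc6a13 and Slc6a20a, the aldehyde oxidase gene Aox3 and Vtn also passed with all nuclei, at −1.19, −1.30, −1.94, −1.54, −2.70 and −1.18. Without doublet calls, Cped1, Sidt1, Slc6a20a and Vtn were at 0.16, −0.81, −0.49 and −0.13 (adjusted p = 0.939, 0.454, 0.775 and 0.945), and Slc6a13 and Aox3 were not tested. Without nuclei that held a vascular or meningeal UMI, Slc6a20a passed at −2.28 (adjusted p = 0.0115). It lost its call by DESeq2, with a robust fit and without LPA 1, LPA 3 or vehicle 3. Slc6a13 and Vtn are on a list of 12 vascular and meningeal markers and are part of its sum. The mean of that sum was lower in LPA libraries, but vehicle 2 lay close to LPA 2. The sum was 143, 149 and 132 CPM in LPA libraries and 235, 152 and 253 in vehicle libraries, led by Ranbp3l, with none of the 12 at 0. Without doublet calls the sums were 60.8 ± 27.7 and 58.1 ± 9.79 (SD, n = 3 each). Leaving out doublet calls brought 27 other genes past the test, 24 lower and 3 higher, and among the lower ones were the neuronal genes Asic2, Snhg11 and Camk2a, while the sum of 12 neuron markers was then 1069 ± 113 in LPA and 1510 ± 258 CPM in vehicle libraries.

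**Figure D4:**
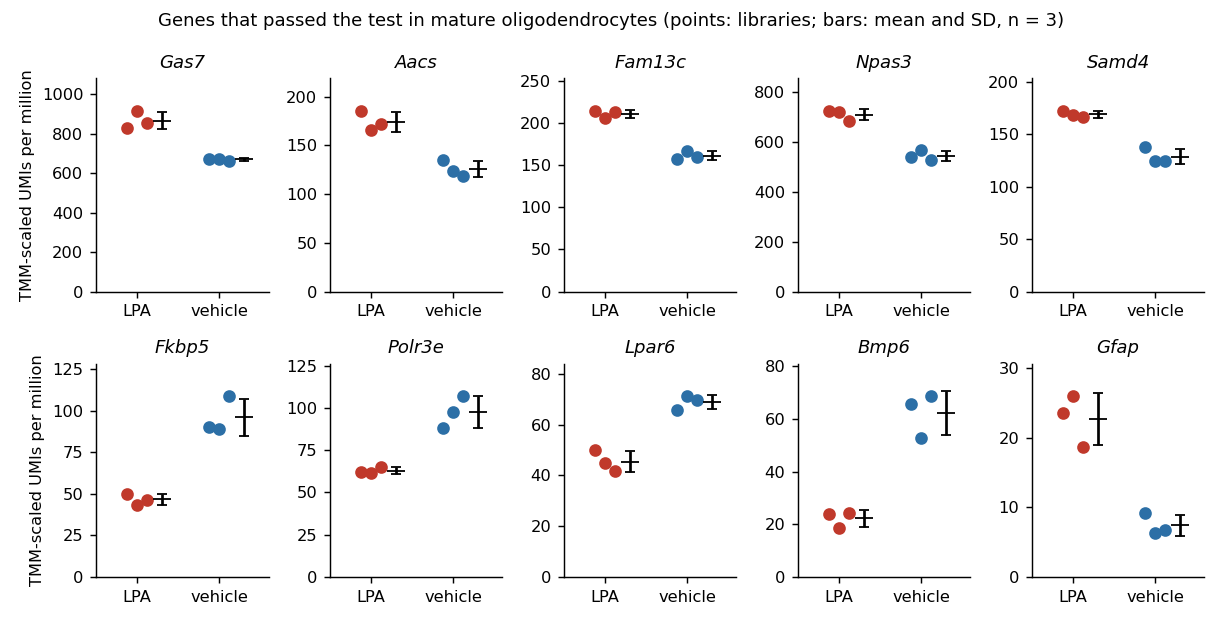
Levels in TMM-scaled CPM (y, from 0) of 10 genes that passed the test in mature oligodendrocytes, for 3 LPA and 3 vehicle libraries (points), with the mean and SD beside them. The groups do not overlap in any panel. The 5 genes of the upper row and Fkbp5, Polr3e and Lpar6 also passed without doublet calls, and Bmp6 and Gfap did not.

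Fkbp5 was lower in every LPA library and belongs to the genes that glucocorticoids induce. Glucocorticoids act through a nuclear receptor that binds DNA, and Fkbp5 encodes a co-chaperone that restrains this receptor. Fkbp5 (chromosome 17, 28399094 to 28517527, minus strand) stood at 49.8, 43.5 and 46.5 TMM-scaled CPM in LPA libraries and 90.1, 89.2 and 109 in vehicle libraries. The highest LPA library was thus well below the lowest vehicle library. The log2 fold change was −1.04 ± 0.11 (adjusted p = 0.000674). It lay between −1.12 and −0.86 in 19 alternatives and passed in 18 of them, the exception being nuclei thinned to 2000 UMIs (adjusted p = 0.0539). A UMI of Fkbp5 was found in 27.1% ± 1.94 of the mature oligodendrocytes of LPA libraries and 37.1% ± 1.93 of those of vehicle libraries, against 19.8% and 29.3% of the nuclei without Mog and Mag. Over all nuclei kept, the level was 62.4 CPM in LPA and 118 in vehicle libraries, so that the same direction was present in the nuclei as a whole. How much of the Fkbp5 in mature oligodendrocytes was free RNA of other cells was not tested.

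The list of glucocorticoid response genes named 25 genes, of which 18 were tested in mature oligodendrocytes. Only Fkbp5 passed (1 of 18, beside 0.234% of all genes lower). The median log2 fold change was −0.27 (−0.004 over all genes), 8 of 18 had an unadjusted p under 0.05 and a lower level, against 4.29% of all genes, and none a higher one. The summed level was 888.5, 889 and 864 CPM in LPA libraries and 1052, 1089 and 1065 in vehicle libraries, and over all nuclei kept it was 1397 and 1586. It was not the only list whose sum was lower in every LPA library, since the stress response genes summed to 517, 519 and 539 CPM against 659, 594 and 590.4, and the injury, antigen presentation and interferon genes to 481, 483 and 479 against 553, 548 and 509. Tsc22d3, the leucine zipper that mediates glucocorticoid action, stood at 110, 102 and 115 TMM-scaled CPM against 135, 161 and 140 (log2 fold change −0.42 ± 0.09, adjusted p = 0.0657). It lay 2.22-fold above the level of all nuclei. The kinase gene Sgk1 stood at 43.7, 47.2 and 32.7 against 76.0, 57.2 and 60.1 (−0.63 ± 0.14, adjusted p = 0.114), and the clock gene Per1 at 24.7, 28.8 and 22.2 against 39.0, 41.3 and 37.0 (−0.63 ± 0.14, adjusted p = 0.0863). Neither gene's groups overlapped, beside 7.26% of all genes without overlap and lower. Gjb6, Zbtb16 and Klf9 were at −0.93, −0.68 and −0.27. Without doublet calls, 5 of the 15 list members tested passed, all lower, beside 0.32% of the 10319 genes tested in that fit: Fkbp5 (−0.88), Sgk1 (−0.94), Per1 (−0.86), Tsc22d3 (−0.44) and Zbtb16 (−1.07), while the median of the list was then −0.01. With all nuclei, 6 of the 18 were above 0, none by more than 0.13.

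Of the 18 genes tested, 16 had a RefSeq promoter. The hexamer AGAACA, a core of the site that the glucocorticoid receptor binds, was searched on both strands and was in a listed promoter of Tsc22d3 and Sgk1. It was in 18.9% of all promoters and, counted as here over all promoters listed for a gene, in those of 21.3% of 27025 genes. The full glucocorticoid response element, this hexamer and its reverse complement a few bases apart, was in a listed promoter of Sgk1, 1 of the 16 genes, other than the one shown here, and in those of 0.0111% of all genes. Both genes are shown by the promoter nearest to the GENCODE start, of 3 and 6 listed, with the hexamer in capitals as it reads on the other strand, at chrX:140600473-140600772 (minus strand, 185 bases before the start) and chr10:21881934-21882233 (plus strand, 195 bases before the start) on GRCm38.p6.
Tsc22d3: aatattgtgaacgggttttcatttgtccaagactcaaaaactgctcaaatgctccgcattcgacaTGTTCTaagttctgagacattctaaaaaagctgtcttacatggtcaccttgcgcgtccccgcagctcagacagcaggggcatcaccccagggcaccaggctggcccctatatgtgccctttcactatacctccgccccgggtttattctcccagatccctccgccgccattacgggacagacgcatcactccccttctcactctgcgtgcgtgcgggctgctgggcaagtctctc
Sgk1: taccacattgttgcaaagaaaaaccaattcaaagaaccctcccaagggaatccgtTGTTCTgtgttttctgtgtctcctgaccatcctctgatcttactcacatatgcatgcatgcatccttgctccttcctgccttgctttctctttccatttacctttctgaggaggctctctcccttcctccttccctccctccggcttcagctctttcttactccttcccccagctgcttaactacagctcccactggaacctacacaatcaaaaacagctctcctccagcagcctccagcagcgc
The promoters listed for Fkbp5 and Per1 did not hold these letters, and that of Fkbp5 lies 31378 bases from the GENCODE start of the gene.

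Genes of cholesterol and myelin lipid synthesis were slightly higher in LPA libraries as a group, with none past the test. Myelin membrane needs cholesterol that oligodendrocytes make themselves. Of 40 genes named and tested, 38 had a log2 fold change above 0 (95%, against 49.3% of all genes), with a median of 0.19. By edgeR 0 of 40 passed and by DESeq2 1 did, beside 41 of all 12415 genes by DESeq2 (15 higher and 26 lower). By edgeR, 15 of the 40 (37.5%) had an unadjusted p under 0.05 and a higher level, beside 4.53% of all genes, and 0 a lower one. In 18 of the 40 every LPA library lay above every vehicle library, beside 7.67% of all genes, and in none below, beside 7.26%. The summed level was 7105, 7759 and 7696 CPM in LPA libraries and 6897, 6724 and 6796 in vehicle libraries. Over all nuclei kept it was 3081 ± 148 and 3172 ± 150. That sum also moves with the share of Mog and Mag nuclei, which was lower in LPA libraries. The list summed to 7163 CPM in mature oligodendrocytes and 3126 in all nuclei kept. The part of composition in the sum over all nuclei was not tested. LPA 1 was the lowest of the LPA libraries but still above the vehicle libraries. Lss, lanosterol synthase, stood at 120, 131 and 128 TMM-scaled CPM against 99.3, 98.2 and 104 (log2 fold change 0.33 ± 0.08, adjusted p = 0.128), and Fdft1, squalene synthase, at 191, 204 and 190 against 157, 163 and 156 (0.30 ± 0.07, adjusted p = 0.114). Hmgcs1, HMG-CoA synthase, stood at 375, 463 and 517 against 379, 348 and 357 (0.32 ± 0.09, adjusted p = 0.282), and here LPA 1 lay within the vehicle range. Mvk, Msmo1, the fatty acid hydroxylase gene Fa2h and the elongase gene Elovl7 were at 0.33, 0.22, 0.19 and 0.24. The median of the list ran from 0.15 (with sex as a term) to 0.21 over the alternatives and was 0.18 without doublet calls. Aacs, above, is not on the list.

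Of the 40 genes, 30 had a RefSeq promoter, and 22 of these held the CCAAT box on either strand in a listed promoter. The box was in 37.4% of all promoters and, counted as here over all promoters listed for a gene, in those of 41.1% of 27025 genes. It was also in listed promoters of 10 of the 16 glucocorticoid response genes that had one. CCAAT is the box of the factor NF-Y, and the promoters of Lss (chr10:76531355-76531654, plus strand) and Hmgcs1 (chr13:119690101-119690400, plus strand) on GRCm38.p6 are shown with it in capitals as it reads on the other strand.
Lss: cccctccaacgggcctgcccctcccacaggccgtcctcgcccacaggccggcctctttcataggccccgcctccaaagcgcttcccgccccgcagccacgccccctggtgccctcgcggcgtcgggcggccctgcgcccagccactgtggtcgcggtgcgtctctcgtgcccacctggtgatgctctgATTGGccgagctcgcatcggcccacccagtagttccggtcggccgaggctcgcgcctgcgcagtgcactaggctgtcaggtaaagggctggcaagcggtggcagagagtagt
Hmgcs1: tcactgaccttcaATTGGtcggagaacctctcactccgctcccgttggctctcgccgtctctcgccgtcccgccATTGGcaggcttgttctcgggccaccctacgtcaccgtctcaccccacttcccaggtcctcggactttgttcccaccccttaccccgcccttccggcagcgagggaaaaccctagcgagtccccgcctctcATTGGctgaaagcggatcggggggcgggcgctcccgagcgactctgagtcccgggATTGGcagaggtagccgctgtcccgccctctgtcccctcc
Lss held 1 box, 62 bases before the start, and Hmgcs1 held 4.

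**Figure D5:**
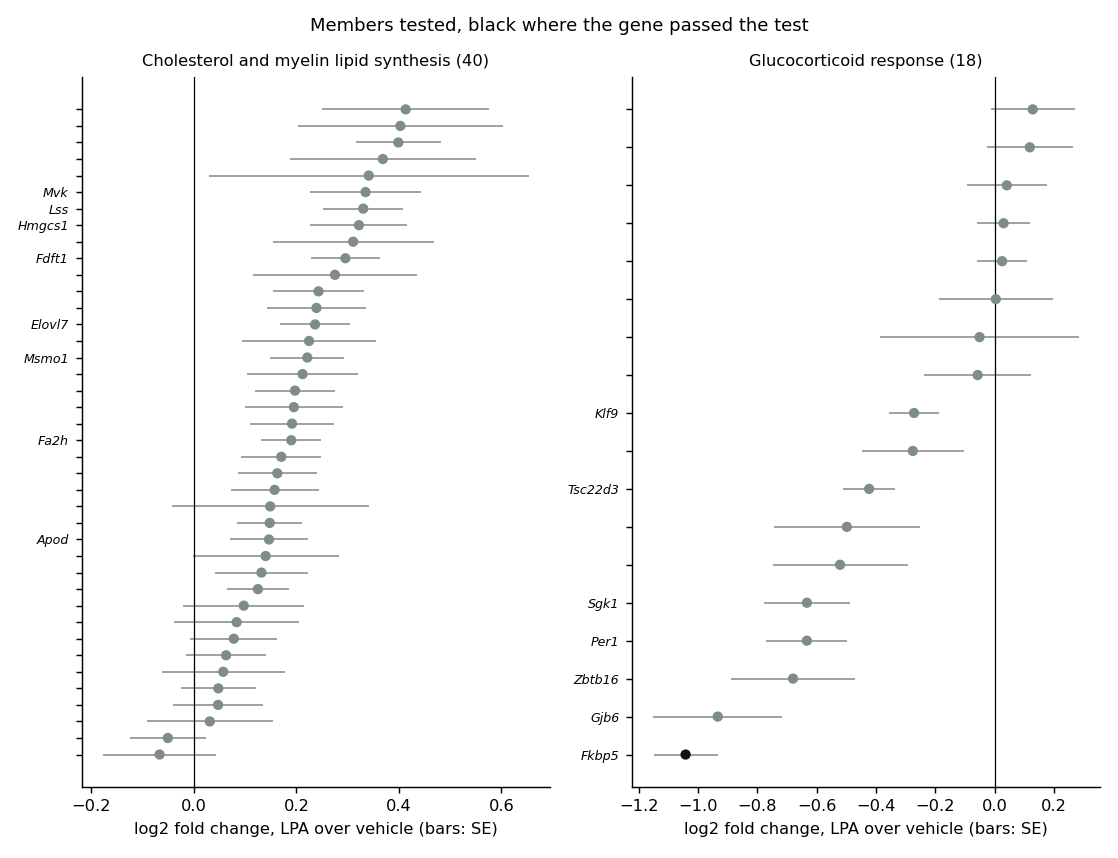
Log2 fold change of LPA over vehicle with its SE (x) in mature oligodendrocytes for the 40 genes of cholesterol and myelin lipid synthesis and the 18 glucocorticoid response genes tested (y, sorted, with genes named in the text labelled). Of the first list 38 lie above 0 and none passed the test, and of the second 12 lie below 0 and Fkbp5 (black) passed.

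Of 18 genes of LPA and sphingosine phosphate signaling tested, only Lpar6 passed, beside 0.234% of all genes lower. These lipids act on cells through G protein-coupled receptors, of which Lpar6 is one. Lpar6 (chromosome 14, 73237895 to 73243294) stood at 49.8, 44.7 and 41.6 TMM-scaled CPM in LPA libraries and 65.7, 71.2 and 69.5 in vehicle libraries, and the groups did not overlap. It fell by 0.60 on the log2 scale (SE 0.10, adjusted p = 0.024), was at −0.63 without doublet calls (adjusted p = 0.0231) and lay 3.82-fold above the level of all nuclei. In the nuclei without Mog and Mag, 4.12% ± 0.471 held a UMI of it in LPA and 3.48% ± 0.510 in vehicle libraries, against 27.6% ± 0.807 and 34.5% ± 2.19 of the mature oligodendrocytes. The call was lost without LPA 2, LPA 3, vehicle 2 or vehicle 3 in turn (adjusted p up to 0.137), with sex as a term (adjusted p = 0.0662), with an upper limit on UMIs (adjusted p = 0.0944) and without nuclei that held a vascular or meningeal UMI (−0.51, adjusted p = 0.259). Of the 18 genes, 3 had an unadjusted p under 0.05 and a higher level and 2 a lower one, beside 4.53% and 4.29% of all genes, and the median was 0.06. Rock2, a kinase that acts on the cytoskeleton, was at 0.26 (adjusted p = 0.305).

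No gene of myelin proteins and sheath enzymes passed by edgeR or by DESeq2. Of 29 tested, 3 had an unadjusted p under 0.05 and a higher level and 2 a lower one, beside 4.53% and 4.29% of all genes, the median was 0.04, and the sum was 26570, 26990 and 27490 CPM in LPA libraries and 27990, 26890 and 26470 in vehicle libraries. Mbp was at 0.04 on the log2 scale. Mobp, a basic protein of the sheath, stood at 3517, 3741 and 3768 TMM-scaled CPM against 4180, 4084 and 3889 (−0.14 ± 0.04, adjusted p = 0.319), and Opalin at 90.1, 94.9 and 88.1 against 104, 118 and 108 (−0.28 ± 0.09, adjusted p = 0.311). Neither gene's groups overlapped, beside 7.26% of all genes without overlap and lower. Prr5l, which the rule did not use, was at 0.08 (adjusted p = 0.688).

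Of 19 late maturation genes tested, 0 passed by either tool, while 4 were higher and 3 lower before adjustment (p under 0.05), beside 4.53% and 4.29% of all genes. The same shares of all genes stand beside the counts before adjustment of the lists that follow. Slc5a11 stood at 25.1, 25.9 and 25.9 TMM-scaled CPM against 16.4, 17.5 and 17.6, a log2 fold change of 0.57 ± 0.14 (adjusted p = 0.169). Ptgds stood at 57.1, 47.6 and 34.8 against 65.3, 86.5 and 139.9 (−1.07 ± 0.23, adjusted p = 0.0815), at 28.5% of its level in all nuclei. Of 19 genes of newly formed and early myelinating cells, 0 passed by either tool (2 higher and 1 lower before adjustment). The corresponding counts were 0 higher and 1 lower of 21 oligodendrocyte transcription factors, 0 and 0 of 11 anillin and septin partners, 1 and 0 of 20 genes of the node, paranode and glial junctions, and 2 and 0 of 23 growth factor and Notch signaling genes, none of which passed by either tool. Of 14 injury, antigen presentation and interferon genes only C4b passed (beside 0.0805% of all genes higher), 1 was higher and 1 lower before adjustment, and Apoe was at −0.33 (adjusted p = 0.114). Of 18 stress response genes and of 21 ion channels and transporters only Slc7a11 passed, which is on both lists (beside 0.234% of all genes lower), and before adjustment 0 were higher and 2 lower of the first list and 1 and 3 of the second.

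Genes of other cell types were present in mature oligodendrocytes at levels that differed between the groups for some of them. The 12 astrocyte markers, led by Gpc5, summed to 2332, 2406 and 2146 CPM in LPA libraries and 2028, 2222 and 2044 in vehicle libraries, and 1 (Gfap) passed, beside 0.0805% of all genes higher. Of 12 neuron markers 0 passed by either tool (2 lower before adjustment), and their sum was 2946 ± 433 and 3335 ± 125. The 12 vascular and meningeal markers had a median log2 fold change of −0.61, and Slc6a13 and Vtn passed, both lower, beside 0.234% of all genes lower and a median of −0.004. The microglial markers summed to 66.2 ± 6.08 and 69.4 ± 3.21 and the ependymal and choroid plexus markers, led by Ttr, to 90.2 ± 19.8 and 93.7 ± 30.7. Of 4 microglial, 6 ependymal and 11 precursor markers tested 0 passed by either tool, and the markers of dividing cells, with a sum of 8.70 ± 2.52 and 8.01 ± 3.26, were under the count filter. No marker of these lists was at 0 over all 6 libraries. Mitochondrial genes were lower in LPA libraries, and 6 of 10 genes of a list of blood and mitochondrial genes passed, all lower and with a median of −1.45, beside 0.234% and −0.004 over all genes. By DESeq2 only mt-Nd2 of the 6 passed (adjusted p of the others 0.148 to 0.588), as it did without LPA 2 (others 0.101 to 0.231), and none of the 6 passed without vehicle 3 (adjusted p = 0.069 to 0.231). Mitochondrial UMIs made up 0.0119%, 0.0229% and 0.0360% of the UMIs of mature oligodendrocytes in LPA libraries and 0.0645%, 0.0511% and 0.0771% in vehicle libraries. Nuclei hold no mitochondria, and the part of RNA left over from the cytoplasm in the other results was not tested.

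The Mog and Mag nuclei without Anln and Hapln2 served to ask whether any change was particular to the mature state. They were not of one kind: the 12 neuron markers, led by Meg3, summed to 5960 CPM in them, against 3141 in mature oligodendrocytes and 8606 in all nuclei kept, the 12 astrocyte markers to 3436 against 2197 and 5224, and Mbp had a UMI in 88.5% of them. The part of other cell types in their changes was not tested. In these nuclei 58 of 15576 genes (0.372%) passed, 33 higher (0.212%) and 25 lower (0.161%), and before adjustment 5.59% of genes were higher and 5.2% lower at a p under 0.05. With at least 5 Mog and Mag UMIs required, 1 gene passed in them. The test of the difference between both changes, in a single edgeR fit, found 0 of 15313 genes, with 927 (6.05%, 3.15% upward and 2.91% downward) at an unadjusted p under 0.05, and DESeq2 found 0 with 173. The replicate block also gave 0, but other alternatives found some genes. They were 45 with every gene of at least 1 UMI, 16 without doublet calls and 11 with a threshold of 2 UMIs. Thinning to 2000 UMIs gave 9 and a robust fit 7. In the main edgeR fits, Fkbp5 was at −0.74 (adjusted p = 0.00623) in the nuclei without Anln and Hapln2, a difference of −0.29 ± 0.12 (adjusted p = 0.772), and Lpar6 at −0.71 (adjusted p = 0.0611), a difference of 0.11 ± 0.16 (adjusted p = 0.98). The cholesterol genes had a median of 0.06 there with 31 of 40 above 0. The glucocorticoid response genes had a median of −0.21 there (−0.006 over all genes), with 2 of 23 above 0 and 8 lower before adjustment, beside 5.2% of all genes. Fkbp5 and Tsc22d3 (−0.50, adjusted p = 0.0233) passed in these nuclei, beside 0.161% of all genes lower. Neither passed without vehicle 3, without nuclei that held a vascular or meningeal UMI, or with at least 5 Mog and Mag UMIs. In these alternatives 0 lower genes passed. In the main fits, Gas7 was at 0.23 and Aacs at 0.17 in these nuclei, with differences of 0.15 ± 0.07 (adjusted p = 0.782) and 0.32 ± 0.10 (adjusted p = 0.603). Among the genes of smallest adjusted p were St3gal4, a sialyltransferase, at 0.32 in mature and −0.08 in these nuclei, and Trf, at 0.10 and −0.27 (both adjusted p = 0.0866). Necab1, a neuronal calcium-binding protein gene, had the same adjusted p, at −0.93 and 0.02.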

How the data were processed

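Nuclei of 6 brains, 3 per group, were sequenced. Per the labels and the study's methods, the authors sorted NeuN-negative nuclei, used the 10x Genomics 3′ v3 kit and counted reads against mm10 pre-mRNA with Cell Ranger 4.0.0. The deposited matrices hold raw UMI counts of 32285 genes. The nuclei and gene lists described here were chosen with earlier results of these data known. UMIs were summed per library and tested with edgeR 4.0.16 (R 4.3.3; default count filter, TMM scaling, quasi-likelihood test). The authors tested nuclei as replicates, whereas here the library was the replicate. Shares were compared by exact permutation over 20 assignments. Doublet calls came from Scrublet in scanpy 1.11.5 at an expected rate of 0.08 and were left out only in an alternative. The fits were tested on simulated data. No 2 libraries of a group were alike within sampling noise (chi-square over its degrees of freedom, 2.11 to 3.94). Named genes are the marker genes, the 10 of lowest adjusted p in each direction, up to 5 per list and the 3 leading genes of the difference in each direction; mitochondrial, sex-linked and unnamed clone genes were left out of the leading genes. Genes that lead the ratio of levels, and those that passed only without doublet calls, were named after their values were seen. Positions of genes are those of GENCODE M21 on GRCm38, counted from 1. Alternatives were DESeq2 1.42.0, no count filter, sex as a term, a replicate block, each library left out, no mitochondrial filter, an upper limit on UMIs, doublet calls left out, thresholds of 2 and 5 UMIs, nuclei thinned to 2000 UMIs, and, added after seeing the data, a robust fit, nuclei without a vascular or meningeal UMI and a minimum of 5 Mog and Mag UMIs. Results for some genes of the lists and for 1 of the motifs searched are not reported here.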

Additional observations from a re-analysis of the deposited data

How the results depend on the processing

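The count of genes changed in mature oligodendrocytes, 39, was 198 with every gene of at least 1 UMI, 21 with sex as a term, 11 with an upper limit on UMIs, 19 with a threshold of 5 UMIs, 12 with nuclei thinned to 2000 UMIs and 6 without the 764 nuclei (30.8%) that held a vascular or meningeal UMI. It ran from 5 (without vehicle 3) to 35 with 1 library left out, and was 15 without LPA 2. Without doublet calls it was 41, of which 14 were among the 39. All 39 lost the call in at least 1 alternative, and 5 (Bmp6, Cped1, Fkbp5, Gfap and Slc7a11) kept it whichever library was left out. Direction was kept by 35 of the 39 in the alternatives that tested them, of which 9 of the 39 had 16 to 18 and the others 19. The exceptions were Bmp6 (0.40), Cped1 (0.16) and Tmtc4 (0.16) without doublet calls and Sidt1 (0.000693) without vascular UMIs, and the marker Ranbp3l was 0.23 without doublet calls. The change of Mbp, near 0, also turned: it was −0.0108 with a threshold of 5 UMIs and −0.0139 thinned. The cause of these moves was not tested.

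In Mog and Mag nuclei without Anln and Hapln2, the count of 58 was 419 with every gene of at least 1 UMI, 126 by DESeq2, 92 without doublet calls, 140 thinned, 5 without vascular UMIs and 1 with at least 5 Mog and Mag UMIs, and ran from 6 (without vehicle 3) to 163 (without vehicle 1), with 15 and 13 without LPA 1 and LPA 2. The count of genes whose change differed, 0, was 45 with every gene of at least 1 UMI, 16 without doublet calls, 11 and 1 with thresholds of 2 and 5 UMIs, 9 thinned, 7 with a robust fit, 1 without vascular UMIs, 1 with at least 5 Mog and Mag UMIs and 0 to 6 with 1 library left out. The difference in the mature share of the nuclei kept ran from −1.24 to −0.770 percentage points with 1 library left out, and was −1.73 with a threshold of 2 UMIs, −1.61 without vascular UMIs, −0.546 thinned and −0.388 with a threshold of 5 UMIs. That of the mature share of Mog and Mag nuclei turned to −0.363 with a threshold of 2 UMIs.

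Replicate numbers were not taken to pair the libraries: the deviations from the group means of same-numbered libraries correlated at 0.344, 0.377 and −0.218 over 5328 genes. With the replicate block, 36 genes passed in mature oligodendrocytes (30 of them among the 39), 63 in the nuclei without Anln and Hapln2 and 0 differed between both, and a share could reach no exact p below 0.25.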
